A study of Homo sapiens with 8 samples.

Results

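The YAP/TAZ pathway and CCN genes described here are 10 genes, YAP1, WWTR1, TEAD1, LATS2, AMOTL1, AMOTL2, CCN1, CCN2, ANKRD1 and AXL, out of 58302 genes in the count table. They were chosen by name with earlier results of these data known, and were matched to the Ensembl identifiers of the table through the GENCODE 44 symbols. WWTR1 encodes TAZ, and CCN1 and CCN2 were formerly called CYR61 and CTGF. RNA was sequenced from A549 cells, an established human lung adenocarcinoma line of epithelial origin, after transient transfection with an siRNA against APEX1 (siAPEX1, 4 libraries) or with a control siRNA (siCTRL, 4 libraries). APEX1 encodes APE1, an endonuclease of base excision repair that also has a redox function. All 8 libraries came from total RNA of the same line, and the labels tell them apart only by the siRNA. They were made with a small RNA kit modified to capture longer primary miRNA transcripts as well, and messenger RNAs of nuclear genes were therefore only a part of each library. The study describes its replicates as biological. The labels do not say whether the 4 libraries of a group came from separate cultures, and each p-value measures only the spread between these libraries, which may in part be technical.

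YAP1 and TAZ are transcriptional coactivators that do not bind DNA themselves but act through the TEAD family of DNA-binding factors. In the Hippo pathway, a cascade of the MST and LATS kinases phosphorylates them, after which 14-3-3 proteins hold them in the cytoplasm and ubiquitin ligases mark them for degradation. Angiomotin proteins such as AMOTL1 and AMOTL2 bind YAP1 and TAZ and keep them away from the nucleus. CCN1, CCN2, ANKRD1 and AXL are widely used as readouts of nuclear YAP/TAZ, and LATS2 and AMOTL2 are targets as well as inhibitors. The activity of the pathway is set largely by phosphorylation and localization of the proteins, which RNA counts do not measure.

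The libraries held between 1348386 and 1949886 counts, and the largest labelled siAPEX1 (1619500) was smaller than the smallest labelled siCTRL (1639796). APEX1 itself had 51, 61, 64 and 47 counts in the libraries labelled siCTRL and 21150, 19470, 27916 and 20767 in those labelled siAPEX1, so that the labelled knockdown is not seen in these counts. Counts per gene do not tell reads of APEX1 mRNA from reads of the transfected siRNA, and their shares were not tested. Every direction given here is that of the libraries as labelled. With APEX1 left out, nuclear protein-coding genes took 14.99% to 15.7% of the counts in the libraries labelled siCTRL and 12.01% to 12.7% in those labelled siAPEX1. The summed level of 11 A549 and epithelial markers was 1585 to 1765 CPM (counts scaled to a common library size, here with TMM factors) in the libraries labelled siCTRL and 1303 to 1372 CPM in those labelled siAPEX1. Of these markers 10 could be tested: KRT8, KRT18, KRT19, KRT7 and NQO1 were lower in the libraries labelled siAPEX1, CDH1 and AKR1B10 were higher, and the other 3 did not pass the test. EPCAM, which was not tested, had 8 or 9 counts in each library labelled siCTRL and 0 to 5 in those labelled siAPEX1. In CPM EPCAM was at 3.71 to 4.98 and at 0 to 3.97, with an overlap. Of 12 markers of other cell types, 10 were detected, and they summed to 14 to 19 counts in the libraries labelled siCTRL and 2 to 6 in those labelled siAPEX1, with CD3E and PECAM1 at 0. Most of these counts were of CD14 (6, 9, 6 and 5 against 2, 0, 0 and 1) and COL1A1 (7, 3, 6 and 11 against 3, 4, 2 and 1). The remaining markers had 0 or 1 count in any library. These marker values moved with the label, and their part in the results below was not tested.

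TEAD factors recognise a short motif in the promoters of their targets, and the stretches that hold this motif are shown here because the 10 genes include both the factor and such targets. The promoter windows of RefSeq (assembly GRCh38.p14), each 300 bases long and reaching from 250 bases before the transcription start to 50 bases after it, covered 8 of the 10 genes with 11 windows. TEAD1 and CCN1 had no window. The core TEAD motif, GGAATG on either strand, matched in 6 of the 11 windows, 1 in each of 6 genes, beside 14% of all 35116 windows. CCN2 had 3 matches, ANKRD1 had 2, and YAP1, AMOTL2, LATS2 and AXL had 1 each. The stretches that hold them are given below in the direction of the gene, with the motif in capitals.
CCN2, chr6:131951459-131951488, minus strand, with first bases 104 and 95 bases before the start: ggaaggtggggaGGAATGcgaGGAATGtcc
CCN2, chr6:131951524-131951553, minus strand, 169 bases before the start: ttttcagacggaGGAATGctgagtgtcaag
ANKRD1, chr10:90921198-90921227, minus strand, 128 bases before the start: gacactgagtctGGAATGaaaattcacctg
ANKRD1, chr10:90921290-90921319, minus strand, 220 bases before the start: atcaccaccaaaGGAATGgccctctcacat
YAP1, chr11:102110273-102110302, plus strand, 162 bases before the start: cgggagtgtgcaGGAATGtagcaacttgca
AMOTL2, chr3:134374499-134374528, minus strand, 69 bases before its second start, match on the opposite strand: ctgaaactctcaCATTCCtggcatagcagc
AXL, chr19:41226531-41226560, plus strand, 212 bases before its second start, match on the opposite strand: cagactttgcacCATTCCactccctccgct
LATS2, chr13:21061560-21061589, minus strand, from base 10 of the transcript: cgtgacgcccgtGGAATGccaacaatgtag

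The windows of WWTR1 (2 starts) and AMOTL1 held no match, which says only that these letters are not in the windows. The AP-1 motif in the form TGANTCA, where N allows any base, is a pattern that reads alike on both strands. It matched in 1 of the 11 windows, that of ANKRD1, with T in place of N, beside 7.71% of all windows. A match describes the sequence and is not evidence of binding.

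**Figure D1:**
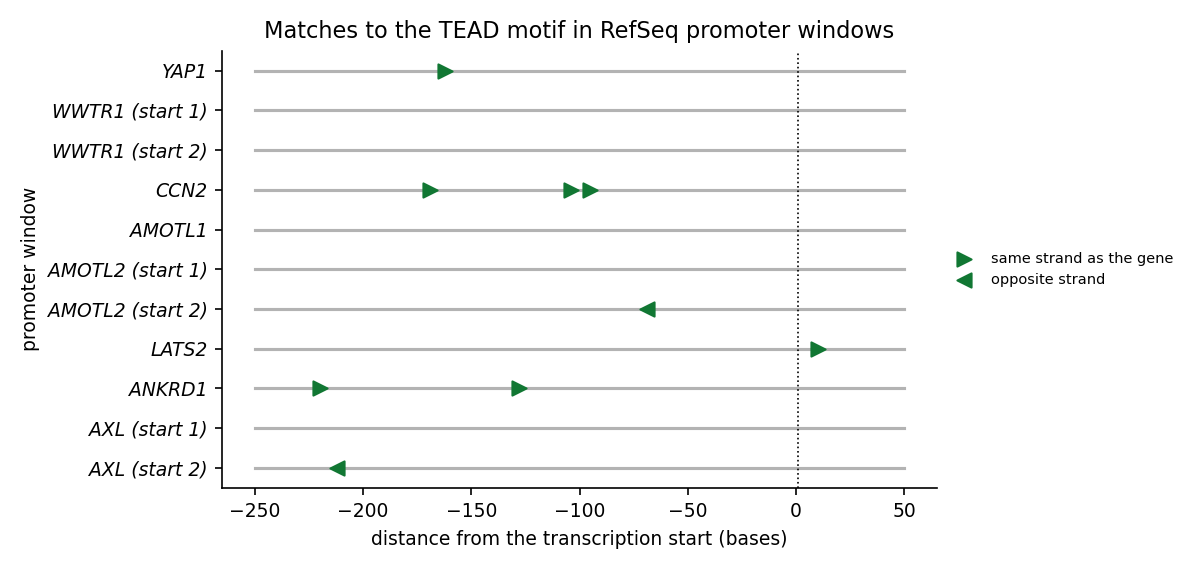
Position of each match to the TEAD motif in the RefSeq promoter windows of 8 genes, with the distance from the transcription start in bases on the x axis (dotted line, start) and 1 row per window; triangles point right for the strand of the gene and left for the opposite strand. CCN2 carries 3 matches between 169 and 95 bases before its start and ANKRD1 carries 2, while the windows of WWTR1 and AMOTL1 are empty.

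All 10 genes passed the filter on low counts, as did 5368 genes of the table. Together they had 333 to 416 counts in the libraries labelled siCTRL and 236 to 283 in those labelled siAPEX1, so that each value below rests on few reads. YAP1 and AMOTL1 were lower and TEAD1 and CCN2 higher in the libraries labelled siAPEX1 at an adjusted p of at most 0.05, the threshold for a call, and the other 6 genes were not called. The 4 calls among 10 genes stand beside 31.7% of all genes tested, and the 2 lower and 2 higher calls beside 15.8% and 15.9%. Only CCN2 was also past a log2 fold change of 1 in size, against 9.28% of all genes tested. In 2 genes, YAP1 and WWTR1, every library labelled siAPEX1 lay below every library labelled siCTRL in CPM (14.9% of all genes tested), and in 2, TEAD1 and CCN2, every one lay above (14% of all genes tested). The median log2 fold change of the 10 genes was −0.12, with 7 negative and 3 positive, beside −0.0035 over all genes tested. With 10 genes, 1 gene makes 10% of the set, so that these shares lie near those of the background.

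**Figure D2:**
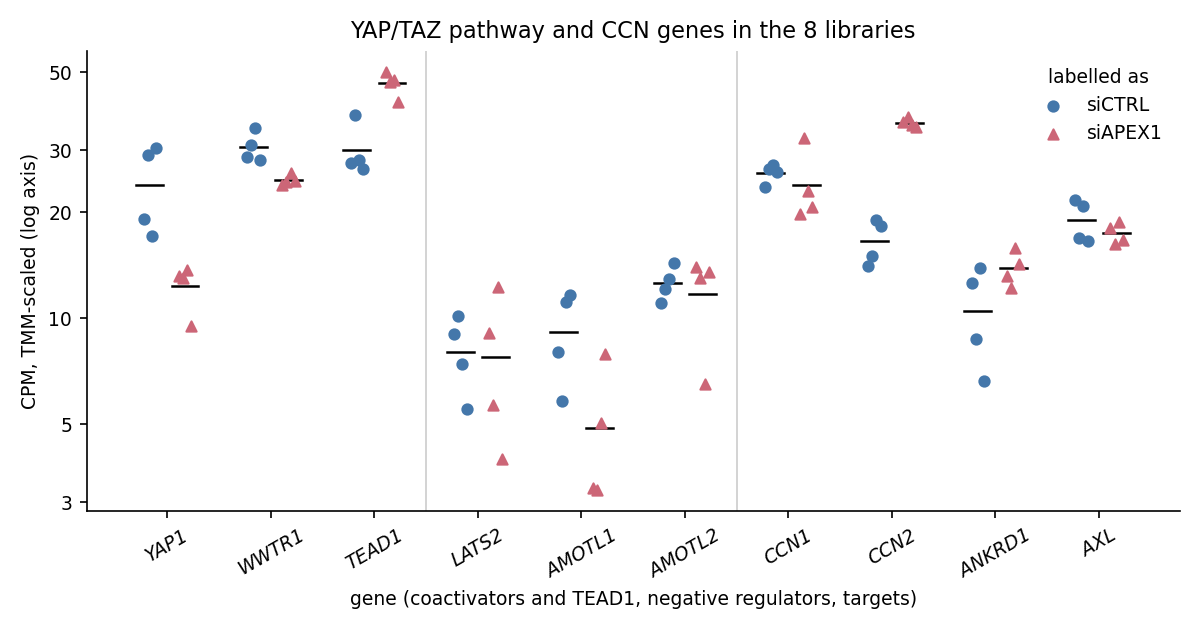
CPM scaled by TMM (log axis) of each of the 10 genes in the 4 libraries labelled siCTRL (circles) and the 4 labelled siAPEX1 (triangles), with a black line at each group mean. CCN2 sits between 14.1 and 19.0 CPM in the former and between 35.0 and 37.3 in the latter, whereas CCN1, ANKRD1, AXL, LATS2, AMOTL1 and AMOTL2 overlap.

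YAP1 (ENSG00000137693, chromosome 11 from 102110447 to 102233424, plus strand, GRCh38), one of the coactivators, was lower in the libraries labelled siAPEX1. Its counts were 38, 60, 37 and 55 in the libraries labelled siCTRL and 16, 16, 19 and 12 in those labelled siAPEX1. On the CPM scale, which divides by the TMM-scaled library size, these were 19.1, 29.1, 17.1 and 30.4 against 13.2, 13.0, 13.7 and 9.53. The groups did not overlap, although replicates 1 and 3 of siCTRL lay well below replicates 2 and 4. Mean levels were 23.9 ± 6.78 and 12.3 ± 1.90 CPM (SD, n = 4 each), and the log2 fold change was −0.94 (SE 0.218, 95% interval −1.38 to −0.50, adjusted p = 0.000815), a fitted level 1.91-fold lower. In RNA from whole cultures, fewer cells with YAP1 RNA and less of it per cell cannot be told apart.

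YAP1 has processed pseudogenes, intronless copies of its mRNA elsewhere in the genome, whose reads can be hard to tell from its own. YAP1P3 (ENSG00000275953, chromosome 6 from 126627484 to 126628570, minus strand) had 7, 5, 4 and 5 counts in the libraries labelled siCTRL and 16, 6, 9 and 9 in those labelled siAPEX1, and did not pass the filter. The copies YAP1P1 and YAP1P2 were at 0 in all 8 libraries. In CPM, YAP1P3 was at 1.85 to 3.52 and at 4.87 to 13.2, so that it was higher in every library labelled siAPEX1, opposite to YAP1. With the pseudogene counts added to those of YAP1, a setting chosen after seeing the data, the log2 fold change was −0.38 and the call was lost (adjusted p = 0.128).

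WWTR1 (ENSG00000018408, chromosome 3 from 149517235 to 149736714, minus strand), the gene of TAZ, had 57, 64, 75 and 51 counts in the libraries labelled siCTRL and 29, 30, 36 and 31 in those labelled siAPEX1. That is 28.7, 31.0, 34.8 and 28.2 CPM against 23.9, 24.3, 26.0 and 24.6 CPM. All 4 libraries labelled siAPEX1 were below the lowest labelled siCTRL, yet the log2 fold change of −0.31 (SE 0.154, 95% interval −0.63 to −0.0029) did not pass the test after adjustment (adjusted p = 0.118). When the test was limited to genes with 10 or more counts in each library, WWTR1 was called at −0.40 (adjusted p = 0.0377). Whether YAP1 and WWTR1 differed from each other in their change was not tested.

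TEAD1 (ENSG00000187079, chromosome 11 from 12674421 to 12944737, plus strand), the DNA-binding partner of both coactivators, was higher in the libraries labelled siAPEX1. Its counts were 55, 78, 61 and 48 in the libraries labelled siCTRL and 61, 58, 66 and 52 in those labelled siAPEX1, similar numbers in libraries of different size. Scaled, they were 27.7, 37.8, 28.3 and 26.6 CPM against 50.2, 47.1, 47.6 and 41.3 CPM, with no overlap. The mean rose from 30.1 ± 5.19 to 46.5 ± 3.76 CPM (SD, n = 4 each), a log2 fold change of 0.62 (SE 0.1403, 95% interval 0.34 to 0.91, adjusted p = 0.000523). With library size alone as the scale, it was 0.28 and not called (adjusted p = 0.104).

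The other TEAD genes did not pass the filter on low counts, and they are named here after their values were seen. TEAD2 had 14, 23, 9 and 12 counts in the libraries labelled siCTRL and 6, 0, 4 and 4 in those labelled siAPEX1. In CPM TEAD2 was at 4.17 to 11.1 and at 0 to 4.94, with an overlap. TEAD4 had 1 to 11 counts in any library and TEAD3 at most 3. VGLL proteins also bind TEAD factors, and VGLL4 competes with YAP1 for them. Of the 7 genes in this list, VGLL3 (0.28, SE 0.277) and VGLL4 (0.36, SE 0.300) were tested on the log2 scale, and 0 were called by edgeR, 0 by DESeq2 and 0 at an unadjusted p under 0.05.

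AMOTL1 (ENSG00000166025, chromosome 11 from 94706431 to 94876748, plus strand), an angiomotin that binds YAP1 at cell junctions, was the called gene among the inhibitors. Its counts were the lowest of the called genes, 16, 12, 24 and 21 in the libraries labelled siCTRL and 4, 4, 7 and 10 in those labelled siAPEX1. The corresponding levels, 8.05, 5.81, 11.1 and 11.6 CPM against 3.29, 3.25, 5.05 and 7.94 CPM, overlapped, since replicate 4 of siAPEX1 lay above replicate 2 of siCTRL. The log2 fold change was −0.88 (SE 0.329, 95% interval −1.55 to −0.22, adjusted p = 0.0364). The call was lost with DESeq2 (adjusted p = 0.128). It was also lost without siCTRL replicate 3 or 4 (adjusted p = 0.113 and 0.107) and without siAPEX1 replicate 1, 2 or 3 (0.137, 0.132 and 0.0801).

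AMOTL2 (ENSG00000114019, chromosome 3 from 134355347 to 134375479, minus strand), its paralog and a target of YAP/TAZ, was not called. It had 22, 25, 28 and 26 counts in the libraries labelled siCTRL and 17, 16, 9 and 17 in those labelled siAPEX1, or 11.1, 12.1, 13.0 and 14.4 CPM against 14.0, 13.0, 6.49 and 13.5 CPM. The low replicate 3 of siAPEX1 set the sign of the log2 fold change, which was −0.12 (SE 0.238, 95% interval −0.60 to 0.36, adjusted p = 0.749) with it and 0.13 without it. 

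LATS2 (ENSG00000150457, chromosome 13 from 20973036 to 21061586, minus strand), the kinase that phosphorylates YAP1 and TAZ, had 18, 21, 16 and 10 counts in the libraries labelled siCTRL and 11, 7, 17 and 5 in those labelled siAPEX1. In CPM these were 9.05, 10.2, 7.41 and 5.53 against 9.06, 5.68, 12.3 and 3.97, and the siAPEX1 libraries enclosed the whole range of the siCTRL libraries. The log2 fold change of −0.05 (SE 0.304, 95% interval −0.66 to 0.57, adjusted p = 0.930) did not pass the test.

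The 4 targets differed in direction and size. CCN2 (ENSG00000118523, chromosome 6 from 131948176 to 131951372, minus strand), which encodes a secreted matricellular protein and whose promoter holds the 3 TEAD matches shown above, had the smallest adjusted p of the 10 genes. It had 28, 31, 41 and 33 counts in the libraries labelled siCTRL and 44, 46, 49 and 44 in those labelled siAPEX1, so that its raw counts did not overlap either. The levels were 14.1, 15.01, 19.0 and 18.3 CPM against 36.2, 37.3, 35.3 and 35.0 CPM. Mean CPM rose from 16.6 ± 2.41 to 36.0 ± 1.06 (SD, n = 4 each), with a fitted log2 fold change of 1.11 (SE 0.162, 95% interval 0.79 to 1.44, adjusted p = 5.23e-07), or 2.16-fold. CCN2 was called under each of its 17 alternative settings, between 0.77 with library size alone and 1.19 without siCTRL replicate 3.

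CCN1 (ENSG00000142871, chromosome 1 from 85580761 to 85584589, plus strand), the paralog of CCN2 with a like role in the matrix, was not called. Its counts were 47, 55, 59 and 47 in the libraries labelled siCTRL and 24, 40, 32 and 26 in those labelled siAPEX1. In CPM they were 23.6, 26.6, 27.3 and 26.0 against 19.8, 32.5, 23.1 and 20.7. Here 3 of the libraries labelled siAPEX1 lay below all of those labelled siCTRL and replicate 2 lay above them. The log2 fold change was −0.11 (SE 0.169, 95% interval −0.45 to 0.23, adjusted p = 0.655), an interval that lies below that of CCN2. The difference between the changes of the 2 genes was not tested itself. 

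The rest of the CCN family had few or no counts. CCN5, named after its values were seen, had 9, 13, 13 and 9 counts in the libraries labelled siCTRL and 5, 2, 1 and 4 in those labelled siAPEX1 and did not pass the filter. CCN3 had 1 count in all 8 libraries together, and CCN4 and CCN6 were listed at 0.

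ANKRD1 (ENSG00000148677, chromosome 10 from 90912096 to 90921087, minus strand) encodes a nuclear ankyrin repeat protein and carries 2 TEAD matches. Its counts of 25, 18, 30 and 12 in the libraries labelled siCTRL and 16, 15, 22 and 18 in those labelled siAPEX1 corresponded to 12.6, 8.72, 13.9 and 6.64 CPM against 13.2, 12.2, 15.9 and 14.3 CPM. The groups overlapped, and the siCTRL libraries spread more widely than the siAPEX1 libraries. The log2 fold change was 0.39 (SE 0.239, 95% interval −0.09 to 0.88, adjusted p = 0.2196).

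AXL (ENSG00000167601, chromosome 19 from 41219223 to 41261766, plus strand), a receptor tyrosine kinase, had 43, 35, 45 and 30 counts in the libraries labelled siCTRL and 22, 20, 26 and 21 in those labelled siAPEX1. Scaled, these were 21.6, 17.0, 20.9 and 16.6 CPM against 18.1, 16.2, 18.7 and 16.7 CPM, a narrow range in which the groups overlapped. The log2 fold change was −0.13 (SE 0.188, 95% interval −0.50 to 0.25, adjusted p = 0.658).

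The scale mattered for the calls, also of genes whose adjusted p with TMM was far from the threshold, such as CCN1 (0.655) and AXL (0.658). With library size alone in place of the TMM factors, which were 1.10 to 1.14 in the libraries labelled siCTRL and 0.873 to 0.919 in those labelled siAPEX1, the log2 fold changes over all genes tested took a median of −0.34. Of all calls, 340 were then higher and 1945 lower, against 856 and 847 with TMM, together 42.6% and 31.7% of all genes tested. Among the 10 genes WWTR1 (−0.66, adjusted p = 0.000619), CCN1 (−0.46, adjusted p = 0.0262) and AXL (−0.47, adjusted p = 0.0430) were called on that scale, TEAD1 was not, and the calls were 5 lower and 1 higher. Relative to the shifted median, YAP1 stood at −0.93, WWTR1 at −0.31, TEAD1 at 0.63, CCN1 at −0.11 and CCN2 at 1.11 on the log2 scale. YAP1 and AMOTL1 remained lower and CCN2 remained higher on both scales.

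**Figure D3:**
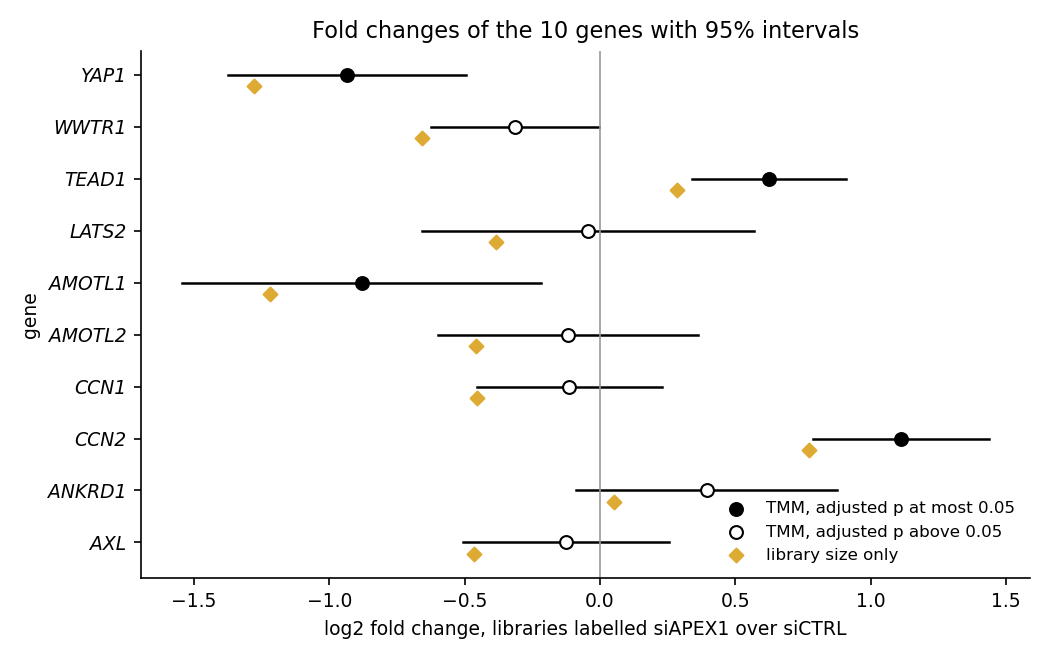
Log2 fold change of each of the 10 genes, libraries labelled siAPEX1 over siCTRL, with TMM factors (circles with 95% intervals, filled where the adjusted p is at most 0.05) and with library size alone (diamonds). The intervals of YAP1, AMOTL1, TEAD1 and CCN2 lie clear of 0 and these genes are called. That of WWTR1 ends just below 0, at −0.0029, without a call, and each diamond lies to the left of its circle.

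Ratios of 2 genes in the same library do not depend on the scale, and they are given as a description, without a test, for pairs chosen after their values were seen. They compare a pair between libraries and not the levels of the genes, since they are not corrected for length. The ratio of CCN2 to CCN1 counts was 0.596, 0.564, 0.695 and 0.702 in the libraries labelled siCTRL and 1.83, 1.15, 1.53 and 1.69 in those labelled siAPEX1, on opposite sides of 1. For TEAD1 over YAP1 the ratios were 1.45, 1.30, 1.65 and 0.873 against 3.81, 3.63, 3.47 and 4.33, again with a gap between the groups. WWTR1 over YAP1 ran from 0.927 to 2.03 and from 1.81 to 2.58, and AMOTL2 over AMOTL1 from 1.17 to 2.08 and from 1.29 to 4.25, so that both overlapped. The pseudogene made up more beside its parent gene, with YAP1P3 over YAP1 at 0.0833 to 0.184 in the libraries labelled siCTRL and 0.375 to 1 in those labelled siAPEX1.

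**Figure D4:**
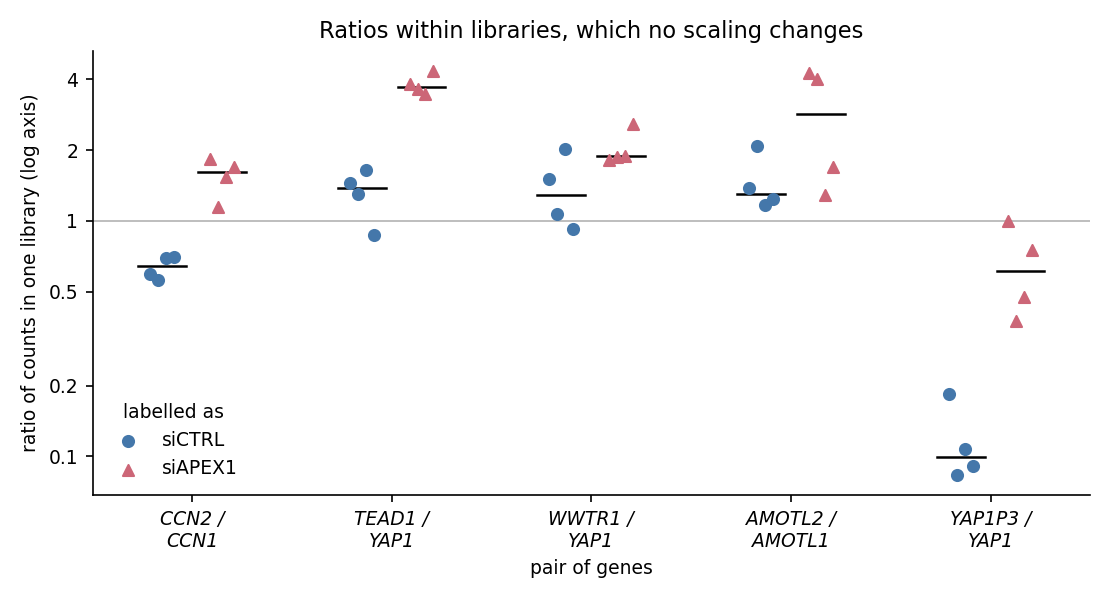
Ratio of the counts of 2 genes within each library (log axis) for 5 pairs, with circles for the libraries labelled siCTRL, triangles for those labelled siAPEX1 and a black line at each median. CCN2 over CCN1, TEAD1 over YAP1 and YAP1P3 over YAP1 separate the groups, whereas WWTR1 over YAP1 and AMOTL2 over AMOTL1 overlap.

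Levels of different genes were compared as CPM per kb of exon sequence. In the libraries labelled siCTRL the order was CCN2 (7.10 ± 1.03, SD, n = 4), CCN1 (7.01 ± 0.435), ANKRD1 (5.84 ± 1.88), YAP1 (3.79 ± 1.07), AXL (3.70 ± 0.506), WWTR1 (3.67 ± 0.358), TEAD1 (2.81 ± 0.485), AMOTL2 (1.95 ± 0.217), LATS2 (1.43 ± 0.360) and AMOTL1 (0.912 ± 0.272). Only TEAD1 and AMOTL2 were neighbours whose libraries did not overlap, so that the remaining neighbours cannot be ranked. In the libraries labelled siAPEX1 CCN2 stood first at 15.4 ± 0.455, above ANKRD1 (7.75 ± 0.883) and CCN1 (6.49 ± 1.57), which overlapped each other. TEAD1 (4.35 ± 0.351), AXL (3.40 ± 0.230), WWTR1 (2.96 ± 0.106) and YAP1 (1.96 ± 0.301) followed without overlap between neighbours. AMOTL2 (1.81 ± 0.545), LATS2 (1.38 ± 0.655) and AMOTL1 (0.487 ± 0.2199) closed the order, each overlapping the gene above it. TEAD1 thus stood below YAP1 and WWTR1 by its mean in one group and above them in the other.

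The genes most like YAP1 over the 8 libraries, by Pearson's r of log2 CPM, were RNF217 (0.966), HSD17B4 (0.957) and XRCC1 (0.955). For CCN1 they were PTPN3 (0.943), MIR103A2 (0.935) and TP53BP2 (0.935). These correlations are a description over libraries that share a group and a depth.

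Outside the 10 genes, 28 further genes known as YAP/TAZ targets were listed, of which 21 were tested and 12 called, 57.1% beside 31.7% of all genes tested. The list was chosen with earlier results of these data known, so that these shares are not an independent comparison. The called genes went both ways, 7 lower and 5 higher in the libraries labelled siAPEX1, and the median of the 21 tested genes on the log2 scale was −0.16. In each of the 12 the groups did not overlap in CPM, which is not separate from the call, as both rest on the same libraries. Of all genes tested, 14.9% were lower and 14% higher without overlap. The lower genes included FSTL1 (−1.44, SE 0.357, adjusted p = 0.00162) and FSTL3 (−1.38, SE 0.309, adjusted p = 0.000525), which encode secreted follistatin-like proteins, and ASAP1 (−0.80, SE 0.169, adjusted p = 0.000231), a GTPase-activating protein of ARF proteins. CCDC80 (−0.61) and MYOF (−0.59) were lower as well. The vasoconstrictor gene EDN1 (−0.55) and IGFBP3 (−0.34), whose product binds insulin-like growth factors, were the other 2, outside the 10 largest changes and named after their values were seen. The higher genes included GADD45A (1.37, SE 0.225, adjusted p = 5.43e-06), a stress gene also under p53, TGM2 (1.07, SE 0.141, adjusted p = 7.23e-08), a transglutaminase, AREG (1.05, SE 0.112, adjusted p = 4.82e-10), an EGFR ligand, and NT5E (0.87, SE 0.253, adjusted p = 0.00693), the ecto-nucleotidase CD73. With library size alone 10 were lower and 4 higher, where 42.6% of all genes tested were called, most of them lower. Promoter windows were found for 19 of the 28 genes, with 22 windows in all, of which 7 held the TEAD motif.

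Few genes of the kinase module upstream of YAP/TAZ were called. Of 38 genes of this module and its regulators 21 were tested, and 2 were called. LIMD1, whose product binds and inhibits LATS kinases, was higher (1.06, SE 0.249, adjusted p = 0.000913), with 4.98 to 9.27 CPM in the libraries labelled siCTRL and 11.4 to 20.9 in those labelled siAPEX1. SLMAP, part of the STRIPAK phosphatase complex that holds the MST kinases inactive, was lower (−0.79, SE 0.266, adjusted p = 0.0203), with 9.05 to 19.4 CPM against 6.49 to 9.88 and hence an overlap. The 9.52% called is below the 31.7% of all genes tested, and the median log2 fold change was −0.08. An unadjusted p under 0.05 was reached by 6 of the 21 genes, beside 2199 of all 5368 genes tested. A gene with few counts is harder to call, so the low share does not show an unchanged module. With library size alone 9 genes of the module were called, 8 lower and 1 higher, where 42.6% of all genes tested were called, most of them lower.

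Of 13 genes for cytoplasmic retention and turnover of YAP and TAZ 11 were tested and 3 called, 27.3% beside 31.7% of all genes tested. The 3 are 14-3-3 genes. YWHAE (−0.48, SE 0.121, adjusted p = 0.00187) and YWHAB (−0.43, SE 0.116, adjusted p = 0.00316) were lower and YWHAG (0.37, SE 0.117, adjusted p = 0.0123) was higher in the libraries labelled siAPEX1. The 3 changes were small beside that of CCN2, and the median of the list was 0.02 on the log2 scale.

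**Figure D5:**
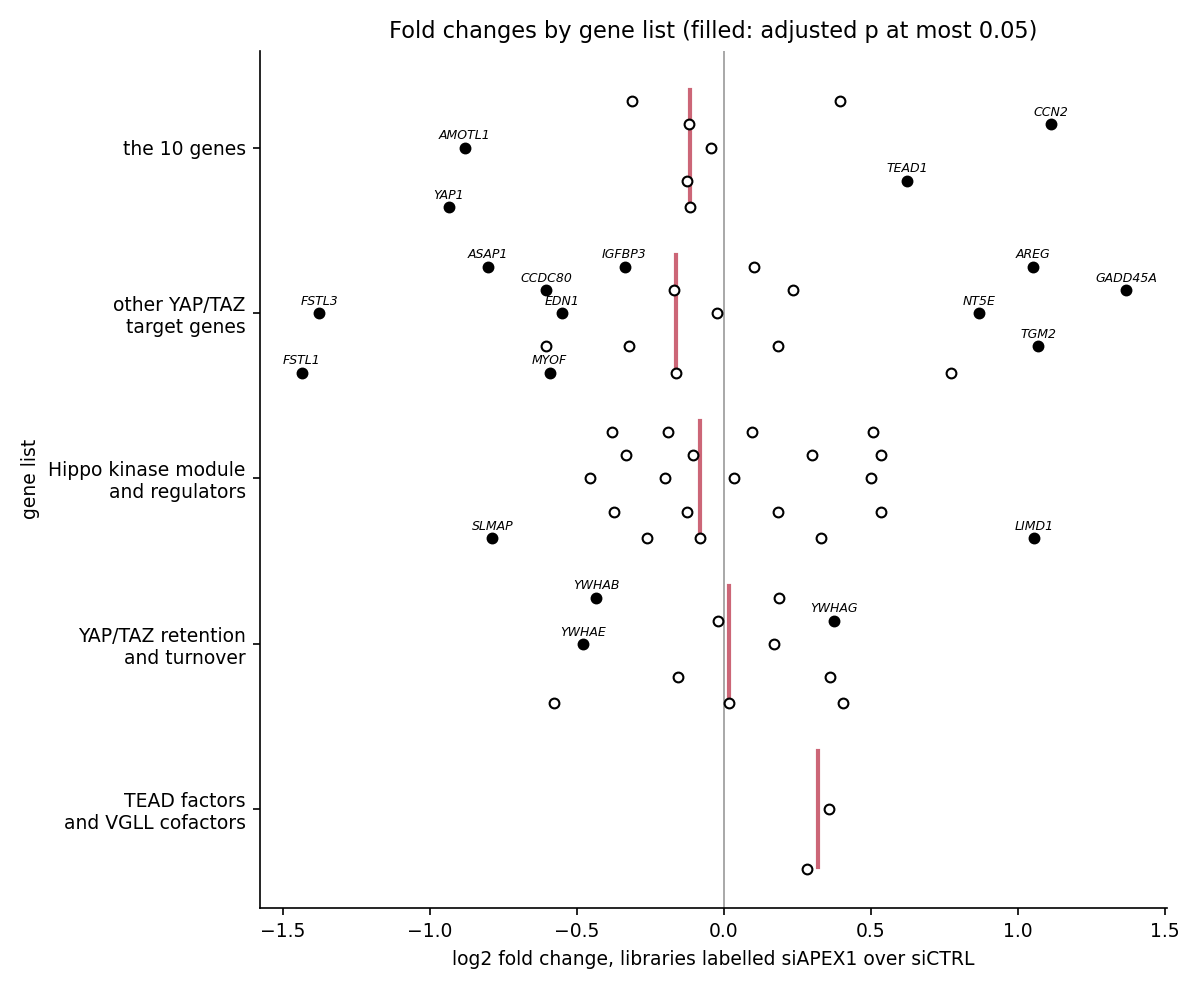
Log2 fold change, libraries labelled siAPEX1 over siCTRL, of the tested genes in 5 lists (rows; 1 target gene is not drawn), filled and named where the adjusted p is at most 0.05, with a red line at the median of each list. The other YAP/TAZ target genes spread to both sides, from FSTL1 at −1.44 to GADD45A at 1.37, whereas the kinase module has 2 called genes.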

How the data were processed

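RNA-seq was deposited for A549 cells labelled siCTRL (n = 4) and siAPEX1 (n = 4). The authors trimmed the reads with cutadapt, aligned them to GRCh38 with STAR (2.5.3a) and deposited raw counts per Ensembl gene from STAR's gene counting; the Ensembl release and the strand setting are not given in the sources used here. Without the latter, a gene and an overlapping gene on the other strand cannot be told apart, but the 16 genes overlapping the 10 genes held 0 to 2 counts in any library. The column of siCTRL replicate 3 was matched by condition and replicate number, as its title repeats the library number of replicate 2.

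The counts were tested with edgeR 4.0.16 (R 4.3.3): filterByExpr (minimum count 10, minimum total 15), TMM factors, quasi-likelihood test over all 5368 genes passing the filter, Benjamini-Hochberg adjustment, and genes with an adjusted p up to 0.05 were called. CPM are scaled by TMM, and log2 CPM for correlations used a prior count of 2. The common coefficient of variation was 0.0832. The steps were tested on simulated data. Alternatives were other factors, DESeq2 1.42.0, other filters and thresholds, a replicate block and leaving out each library. Named were the 10 genes, APEX1, pseudogenes, and up to 10 called genes per list; 1 called gene is counted but not reported here by name. Members and lists were chosen with earlier results of these data known. Replicates differed beyond counting noise (chi-square per degree of freedom 1.94 to 3.92). Positions are from GENCODE 44 on GRCh38. No molecular identifiers are named in the sources used here, so counts are of reads and may include PCR copies.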

Additional observations from a re-analysis of the deposited data

Results flagged for a closer look

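In 3 of the 20 groups of 4 libraries (10 genes, 2 groups each) the lowest or highest library stood apart from the other 3 by Dixon's criterion at the 95% level, which chance alone flags in about 1 in 20 groups. YAP1 was at 9.53 CPM in replicate 4 of siAPEX1, below the next value of 13.0. TEAD1 was at 37.8 CPM in replicate 2 of siCTRL, above the next value of 28.3, and still below all libraries labelled siAPEX1. AMOTL2 was at 6.49 CPM in replicate 3 of siAPEX1, below the next value of 13.0. The cause was not tested.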

How the results depend on the processing

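Of 167 values for single genes under alternative settings, 150 kept their direction and side of the threshold, 8 lost the call, 4 gained it and 5 changed sign. AMOTL2 turned to 0.13 on the log2 scale without siAPEX1 replicate 3, in a range of −0.19 to 0.13 with single libraries left out. LATS2 turned to 0.0094 and 0.086 without siCTRL replicate 1 and 2, and to 0.099 and 0.19 without siAPEX1 replicate 2 and 4, in a range of −0.35 to 0.19. None of these sign changes was called. With at least 10 counts required in every library, only 7 of the 10 genes were tested. The number of the 10 genes called was 3 to 6 under the alternatives, apart from 1 when a change of 1 or more on the log2 scale was also required, and 3 or 4 when any library was left out. Of the other YAP/TAZ targets 5 were called under that requirement, and 11 to 14 when a library was left out. In the kinase module, 2 of 21 tested genes were called in the main fit. With library size alone it was 9 of 21, and with DESeq2 1 of 21. It was 4 of 38 with all genes of at least 1 count and 1 of 12 with at least 10 counts in every library. Under the requirement on size it was 1 of 21. Over all genes tested, these settings called 42.6%, 20.9%, 8.21%, 37.9% and 9.28%, against 31.7% in the main fit. When a library was left out, 1 to 5 genes of the module were called, beside 25.9% to 29.7% of all genes tested. The count was 1 without siCTRL replicate 2 or 3 or siAPEX1 replicate 3. It was 4 without siAPEX1 replicate 1 and 5 without siCTRL replicate 4. Over all genes DESeq2 called 1123 against 1703 with edgeR.

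The replicate block left the counts at 4 of the 10 genes, 12 of the other targets and 2 of the kinase module. Same-numbered libraries did not deviate together (correlations −0.037 to −0.0035), and 0 of 8 libraries correlated best with their own number. The 10 genes had 4 to 78 counts each in any library, which limits the precision of their fold changes.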

Other observations

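Several genes of the Hippo pathway had too few counts to be tested, and they are given here as counts, named after their values were seen. The TMM-scaled size of the libraries labelled siAPEX1 was smaller, so that equal counts there stand for a higher level. NF2, the gene of the membrane-linked activator merlin, had 9, 23, 13 and 9 counts in the libraries labelled siCTRL and 6, 2, 5 and 0 in those labelled siAPEX1. In CPM it was at 4.53 to 11.1 and at 0 to 4.94, so that the groups overlapped. LATS1, the paralog of LATS2, had 10, 9, 11 and 10 against 7, 8, 6 and 12. Scaled, LATS1 was at 4.36 to 5.53 CPM against 4.33 to 9.53 CPM, with an overlap, so that its counts do not show a lower level. RASSF1, a scaffold of the MST kinases, had 4, 2, 4 and 4 against 4, 4, 5 and 9. That is 0.969 to 2.21 CPM against 3.25 to 7.15 CPM, higher in every library labelled siAPEX1. FAT4 and SIKE1, also of this module and not tested, lay higher without overlap too. Among the targets, BIRC5, which encodes survivin, had 2, 6, 5 and 3 against 6, 8, 6 and 5. On the CPM scale BIRC5 was at 1.01 to 2.91 against 3.97 to 6.49, likewise without overlap. Of all genes tested, 14% lay higher without overlap, and the share among genes with so few counts was not computed. AMOT, the founding angiomotin, had 1 count in siAPEX1 replicate 4 and 0 in the other 7 libraries.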
